A study of Mus musculus with 6 samples.

Results

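The miRNAs described here are those named miR-466, miR-467, miR-669 and miR-297, the 4 name families (stems) of the miRNA cluster inside the mouse gene Sfmbt2. The rule for choosing them used names alone and was set with earlier results of these data known. It took every mature miRNA of the deposited count table whose name begins with 1 of the 4 stems followed by a letter or a hyphen. That gave 67 of the 1390 miRNAs in the table: 4 of miR-297, 25 of miR-466, 12 of miR-467 and 26 of miR-669. Small RNAs were sequenced from the whole thymus of C57BL wild-type mice aged 5 weeks, with 3 mice in each of 2 groups. Irradiation was an X-ray dose of 6 Gy (rate 800 cGy/min, source 40 cm away), and those mice were sampled 24 h later. The control mice carried the same genotype and were not irradiated. The labels call the RNA polyA RNA, and name TRIzol extraction and NEBNext library kits.

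A miRNA gene is transcribed as a long RNA that folds into a hairpin, and the enzymes Drosha and Dicer cut the hairpin to release a short strand from each side, the 5p strand from the left arm and the 3p strand from the right arm. The strand kept by an Argonaute protein lowers the output of messenger RNAs that pair with its seed, bases 2 to 8. Sfmbt2 encodes a Polycomb-group protein, is imprinted, and is expressed from the paternal allele in early embryo and placenta, where the miRNA cluster in its intron is best known. The cluster is specific to rodents and grew by tandem duplication, so many of its miRNAs are close copies of each other.

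A hairpin from each of 3 stems shows how the families are built. Each is printed 5′ to 3′ as the deposited precursor, with both mature strands in capitals. The left arm is rich in uridine and guanosine and the right arm in adenosine and cytidine.
mir-466b-8: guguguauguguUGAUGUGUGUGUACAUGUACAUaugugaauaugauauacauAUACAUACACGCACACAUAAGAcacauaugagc
mir-669a-9: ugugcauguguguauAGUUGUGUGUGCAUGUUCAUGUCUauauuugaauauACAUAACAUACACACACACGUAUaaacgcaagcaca
mir-297b: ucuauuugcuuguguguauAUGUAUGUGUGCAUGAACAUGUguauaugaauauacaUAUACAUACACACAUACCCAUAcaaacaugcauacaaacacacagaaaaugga

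In GRCm38 (GENCODE M21) all 3 lie on the plus strand of chromosome 2, in intron 10 of Sfmbt2, counted along transcript Sfmbt2-201 with its 23 exons. Mir-466b-8 spans 10476628 to 10476713, mir-669a-9 spans 10494028 to 10494114, and mir-297b spans 10511667 to 10511775. The gene itself runs from 10370510 to 10595253. The build behind the authors' counts is not given in the sources used here, so positions come from an exact match of each mature sequence within the annotated miRNA hairpins.

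That match placed 100 hairpins in intron 10, between 10465760 and 10518279, a stretch of 52520 bp with a median gap of 208 bp between neighbours. Of these hairpins, 62 hold a miR-669, 25 a miR-466, 15 a miR-467 and 5 a miR-297, and some hold members of more than 1 stem. A miR-467 hairpin, a miR-466 hairpin and a miR-669 hairpin followed each other directly 14 times. The starts of neighbouring miR-467 hairpins were a median of 2449.5 bp apart, with a range of 1909 to 2470 bp. A further 71 hairpins with an exact match lie on 20 chromosomes outside Sfmbt2, and 61 of the matches there belong to miR-466i-5p. By this match, 55 members are found within Sfmbt2 only, 4 within it and elsewhere, and 8 elsewhere only.

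**Figure D1:**
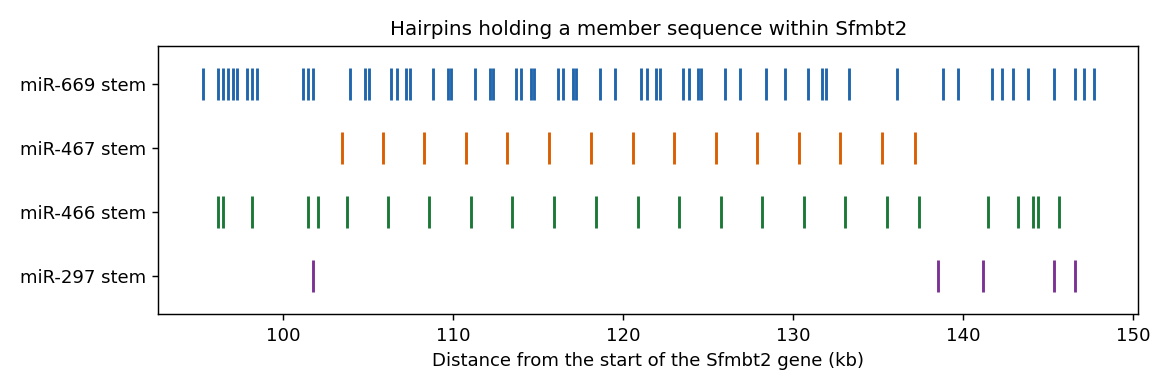
Map of the hairpins that hold a member within intron 10 of Sfmbt2, drawn by distance in kb from the start of the gene, with 1 line of marks for each stem. The 100 hairpins fill 52520 bp, and the miR-467, miR-466 and miR-669 marks recur in the same order.

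The mature strands that carry most of the counts are printed next, with the seed in capitals, because their seeds and their overlaps decide which members can be told apart.
miR-467a-5p: uAAGUGCCugcauguauaugcg
miR-467b-5p: gUAAGUGCcugcauguauaug
miR-467c-5p: uAAGUGCGugcauguauaugug
miR-467d-5p: uAAGUGCGcgcauguauaugcg
miR-467e-5p: aUAAGUGUgagcauguauaugu
miR-467a-3p: cAUAUACAuacacacaccuaca
miR-466a-3p: uAUACAUAcacgcacacauaaga
miR-466b-3p: aUACAUACacgcacacauaaga
miR-466b-5p: uGAUGUGUguguacauguacau
miR-466c-5p: uGAUGUGUgugugcauguacauau
miR-669a-5p: aGUUGUGUgugcauguucaugucu
miR-669a-3p: aCAUAACAuacacacacacguau
miR-669c-5p: aUAGUUGUguguggaugugugu
miR-297b-5p: aUGUAUGUgugcaugaacaugu
miR-297b-3p: uAUACAUAcacacauacccaua

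Counted from 1 at the 5′ end of miR-467a-5p, miR-467c-5p differs by C8G and C21U, and miR-467d-5p by C8G and U9C. MiR-467e-5p starts 1 base earlier and differs by C7U, C8G, U9A and C21U. MiR-467b-5p is miR-467a-5p begun 1 base earlier, so the same hairpin arm is listed under 2 names with different seeds. MiR-466a-3p and miR-466b-3p also differ by a 1-base shift of the start. The 67 members have 41 different seeds, and 40 members share a seed with at least 1 other member. The most widely shared seed, UAUACAU, belongs to 6 members, and AUACAUA belongs to 4, among them miR-297b-3p and miR-466a-3p from different stems.

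Mature lengths range from 19 to 25 bases. The share of G and U bases was 59.1% to 100% in the 5p strands, with a median of 70.8%, and 9.52% to 73.9% in the 3p strands, with a median of 23.3%. A strand was taken from the name for 56 members and from the position in the deposited precursor for 11. The RefSeq table of mature miRNAs held 7 of the 67 by name, and the sequences printed here are those of the deposited table.

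Sequence sharing shows in the counts. Counts were equal in every library for miR-467a-5p and its shifted form miR-467b-5p, for miR-466d-5p and miR-466n-5p, and for miR-467a-3p and miR-467d-3p. MiR-466a-3p and miR-466b-3p differed by at most 8 counts in a library, which over the libraries came to 0.585% of their counts, and miR-466f and miR-466f-5p differed by at most 9 counts (4.23%). After identical rows were merged, the 64 members with any count gave 61 distinct profiles. Joining members that share a run of 18 or more bases left 42 groups. How the authors assigned reads that match several members is not given in the sources used here, so a level of 1 member can include reads of its copies, and the members are not independent measurements.

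Each library held between 7730641 and 9287017 counts, spread over 828 to 924 miRNAs. Levels are CPM (counts scaled to a fixed library size with trimmed-mean factors) and carry no length term, since each read covers 1 mature miRNA. A count of 0 allows up to 3 counts, or 0.278 to 0.428 CPM, for counting error only. As a check of the labelled tissue, 9 thymocyte and blood-cell miRNAs (of the miR-181, miR-128, miR-142, miR-150 and miR-155 families) summed to 102744 to 169822 CPM in the controls. In the irradiated libraries the same sum ranged from 7214 to 11736 CPM, and 7 of the 9 passed the test as lower. Several markers of other cell types were higher. Of the 6 stromal and vascular miRNAs 4 were higher, with sums of 91080 to 239977 CPM in controls and 209202 to 328567 CPM after irradiation, and all 4 epithelial miRNAs were higher, with 3167 to 4007 and 10721 to 15832 CPM. All 3 muscle miRNAs were higher, from 202 to 480 CPM in controls to 602, 20116 and 13396 CPM in irradiated replicates 1, 2 and 3. Of 3 erythroid miRNAs 2 were higher, with 480 to 724 CPM in controls and 604 to 5028 CPM after irradiation, and the myeloid marker miR-223-3p did not pass, with 21.3 to 41.7 and 12.0 to 83.7 CPM. No marker was at 0. Over all 519 tested miRNAs 144 were higher and 174 lower by the same test. The part of this shift in the results on the cluster was not tested, and in bulk tissue fewer cells of a type cannot be told apart from less RNA per cell.

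The miRNAs of all 4 stems were lower in the irradiated thymus. Of the 48 members with enough counts to test among the 519 miRNAs tested, 47 were lower at an adjusted p of 0.05, none was higher, and miR-466i-5p did not pass (edgeR quasi-likelihood test with Benjamini-Hochberg adjustment over all 519). The background was high: 33.5% of all tested miRNAs were lower by the same rule, and 127 of the 471 tested miRNAs outside the 4 stems were. In 46 members every irradiated library was below every control library, against 36.6% of all tested miRNAs. The median log2 fold change of irradiated over control was −2.64 over the 48 members and 0.01 over all tested miRNAs. Merging identical rows left 45 distinct tested profiles, of which 44 were lower.

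Apart from miR-466i-5p and miR-669c-5p, described later, the log2 fold changes lay between −3.34 and −1.59. These 46 members were 3.00- to 10.1-fold lower, with adjusted p from 4.7e-05 to 0.0083 in the edgeR test. Their mean control levels ran from 1.53 to 2320 CPM. The 10.1-fold end is miR-466a-5p, with 25, 60 and 44 counts in controls and 3, 2 and 7 after irradiation. Members this scarce passed the count filter through the controls alone, so they could come out only as lower. Among them are also miR-466g, miR-466j, miR-466m-3p, miR-669b-3p and miR-669p-3p. Without the filter 53 of 64 tested members were lower, beside 193 of all 1244 miRNAs tested. The 19 members too low to test had between 0 and 69 counts over the 6 libraries. Together they held 288 counts in the controls and 62 in the irradiated libraries: 15 had a lower sum after irradiation, miR-467h a higher one, and miR-669g, miR-669j and miR-669n had no count. These are unscaled counts, only 1 over all libraries for miR-467f and for miR-467h. The other untested miRNAs were not counted in this way, so the split is a description only.

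**Figure D2:**
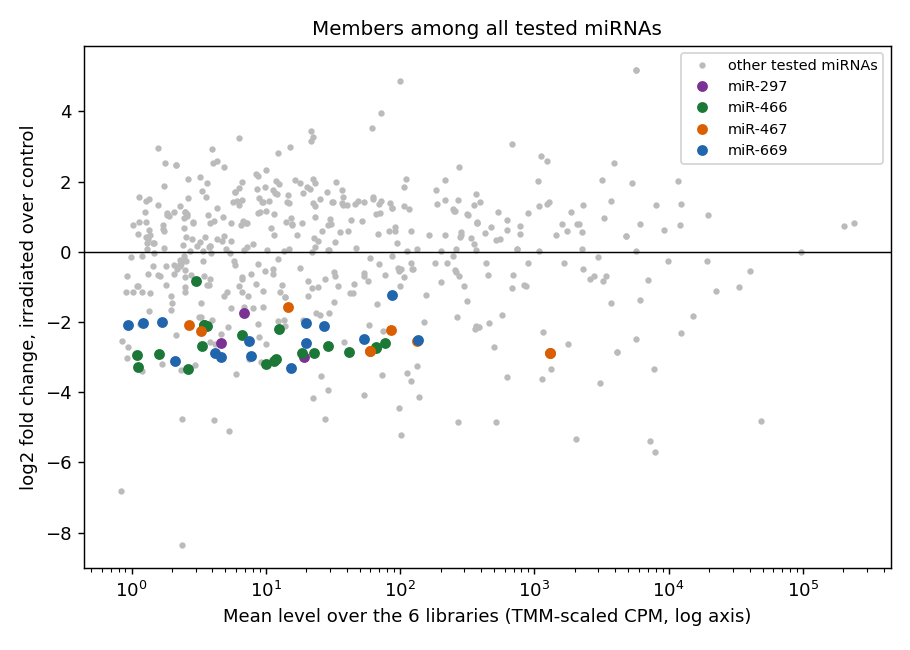
Mean level over the 6 libraries in CPM (horizontal, log axis) and log2 fold change of irradiated over control (vertical), with 1 point for each tested miRNA and the members coloured by stem. The members lie between −3.34 and −0.83 at low and high levels alike, and the median of all tested miRNAs is 0.01.

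Summed over distinct profiles, the cluster held 3465, 4510.5 and 4649.9 CPM in the 3 control libraries and 578, 617 and 807 CPM in the irradiated libraries. The groups were far apart, with the highest irradiated sum well under the lowest control. The means were 4209 ± 647 and 667 ± 123 CPM (SD, n = 3), a 6.31-fold difference that left 15.9% of the control level. As a share of all counts in the library, the members took 0.285%, 0.629% and 0.460% in the controls and 0.0511%, 0.0605% and 0.0818% after irradiation. No test is given for sums over members, since the members were chosen with results known.

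The miR-467 stem was the most abundant and was led by its 5p strands. MiR-467a-5p measured 1959, 2273 and 2727 CPM in the controls and 208, 339.9 and 394 CPM in the irradiated libraries. All 3 irradiated libraries were far below every control. The means were 2320 ± 386 and 314 ± 95.8 CPM (SD, n = 3), and the log2 fold change was −2.89 ± 0.31 (SE, edgeR adjusted p 6.0e-05). It is matched by 12 hairpins in the intron, and the same counts stand under miR-467b-5p. MiR-467a-5p made up 56.5%, 50.4% and 58.7% of the member counts in the controls and 36.0%, 55.1% and 48.8% after irradiation. Without it, the remaining members summed to 1889 ± 366 CPM in controls and 353 ± 69.7 CPM after irradiation, which is 5.35-fold lower.

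The single-hairpin relatives of miR-467a-5p changed in the same direction. MiR-467e-5p measured 195, 258 and 228 CPM in controls and 51.3, 27.5 and 37.7 CPM after irradiation, with no overlap between groups. Its log2 fold change was −2.55 ± 0.31 (edgeR adjusted p 1.1e-04). MiR-467c-5p, with C8G in the seed, measured 133, 136 and 155 CPM and then 36.8, 20.7 and 33.1 CPM. The controls were tight and the irradiated libraries all lower, with a log2 fold change of −2.23 ± 0.30 (edgeR adjusted p 1.9e-04). MiR-467d-5p, which carries U9C beside C8G, measured 20.3, 19.6 and 25.9 CPM and then 7.96, 6.80 and 7.11 CPM. Its libraries were close within each group and did not overlap, and its log2 fold change of −1.59 ± 0.29 was the smallest among the 9 tested miR-467 members (edgeR adjusted p 0.0013).

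On the other arm, miR-467a-3p measured 66.2, 145 and 102 CPM in controls and 14.1, 14.1 and 15.9 CPM after irradiation. Control 2 was highest, and the irradiated libraries were nearly equal. The log2 fold change was −2.83 ± 0.34 (edgeR adjusted p 9.4e-05). MiR-467e-3p and miR-467c-3p were scarce, at 5.43 and 4.35 CPM on average in controls, and were lower by log2 fold changes of −2.25 ± 0.44 and −2.09 ± 0.52 (edgeR adjusted p 0.0018 and 0.0065). All 9 tested miR-467 members were lower, with a median log2 fold change of −2.55, and the stem sum went from 2825 ± 435 to 407 ± 84.9 CPM, leaving 14.4%.

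**Figure D3:**
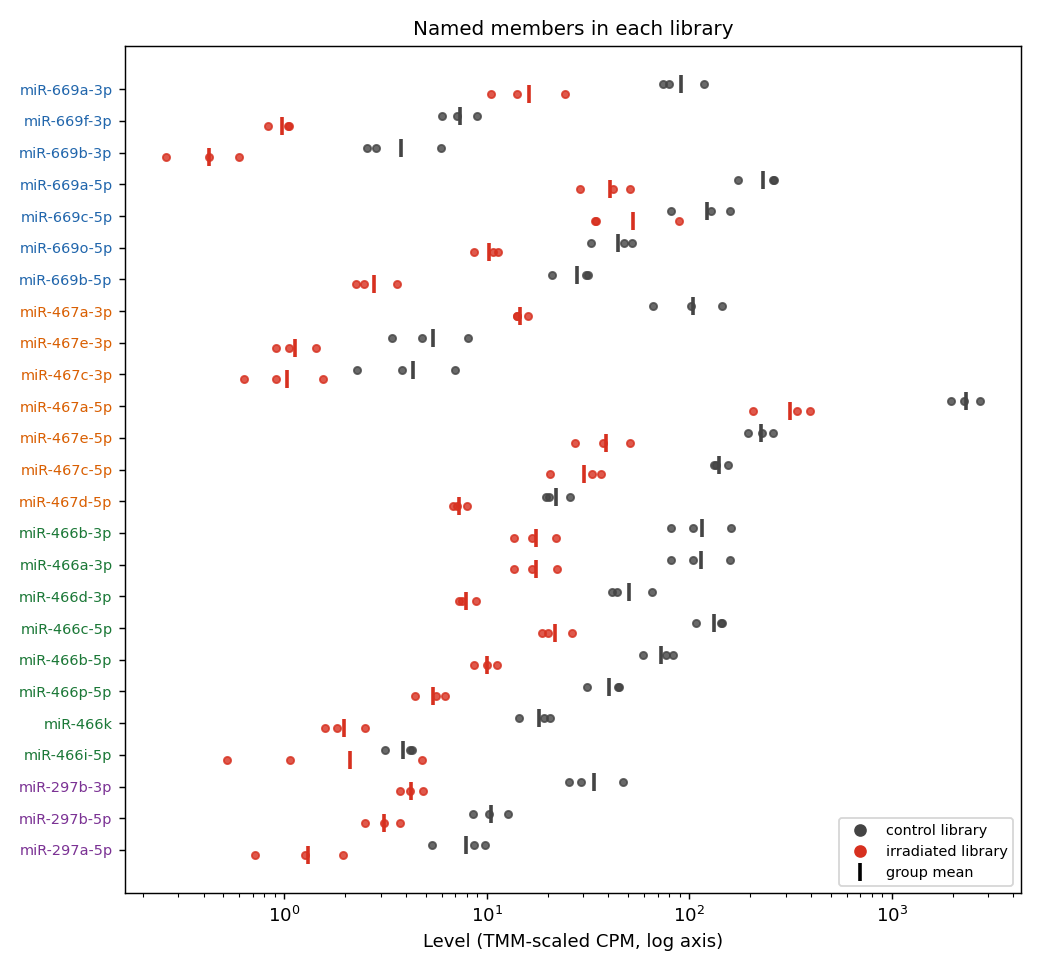
Level in CPM (log axis) of the 25 named members that were tested, in each library, with control and irradiated libraries in separate colours, 1 point for each mouse and a bar for each group mean. The groups are apart for every member shown except miR-466i-5p and miR-669c-5p, where irradiated replicate 3 reaches into the control range or above it.

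The miR-466 stem had the most tested members: 20 of 21 were lower, with a median log2 fold change of −2.73. MiR-466c-5p measured 109, 146 and 144 CPM in controls and 20.1, 18.9 and 26.4 CPM after irradiation. The irradiated libraries lay well below the controls, and the log2 fold change was −2.61 ± 0.29 (edgeR adjusted p 7.2e-05). MiR-466b-5p, which has the same seed, measured 59.1, 82.9 and 76.7 CPM and then 10.05, 8.72 and 11.3 CPM. Both groups were narrow and far apart, with a log2 fold change of −2.86 ± 0.29 (edgeR adjusted p 4.7e-05). MiR-466p-5p measured 31.2, 45.2 and 44.5 CPM and then 4.44, 5.61 and 6.26 CPM, again without overlap. Its log2 fold change was −2.89 ± 0.31 (edgeR adjusted p 6.4e-05).

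Among the miR-466 3p strands, miR-466b-3p measured 81.7, 161 and 105 CPM in controls and 22.1, 13.7 and 16.7 CPM after irradiation. Control 2 stood highest and the groups did not overlap, with a log2 fold change of −2.73 ± 0.35 (edgeR adjusted p 1.4e-04). MiR-466a-3p, nearly the same count profile, changed by −2.71 ± 0.35. MiR-466d-3p measured 41.8, 65.2 and 44.3 CPM and then 8.87, 7.28 and 7.54 CPM. The irradiated libraries were close together and far under the controls, with a log2 fold change of −2.67 ± 0.30 (edgeR adjusted p 7.4e-05). The stem sum fell from 689 ± 136 to 106 ± 14.8 CPM, leaving 15.4%.

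The miR-669 stem had 15 tested members, all lower, with a median log2 fold change of −2.52. MiR-669a-5p measured 174, 262 and 261 CPM in controls and 42.0, 28.8 and 51.0 CPM after irradiation. Control 1 was the lowest control and still far above the irradiated libraries, and the log2 fold change was −2.52 ± 0.32 (edgeR adjusted p 1.4e-04). MiR-669a-3p measured 74.6, 119 and 80.0 CPM and then 24.3, 14.1 and 10.5 CPM. The groups did not overlap, with a log2 fold change of −2.49 ± 0.37 (edgeR adjusted p 3.6e-04). MiR-669b-5p measured 21.1, 30.8 and 31.8 CPM and then 2.48, 2.27 and 3.61 CPM. Its drop, a log2 fold change of −3.31 ± 0.35, was the largest among members averaging at least 10 CPM (edgeR adjusted p 6.0e-05).

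MiR-669o-5p was lower by a log2 fold change of −2.11 ± 0.30, from 44.4 ± 10.3 to 10.3 ± 1.38 CPM (edgeR adjusted p 2.5e-04). The scarcer miR-669f-3p and miR-669b-3p, at 7.38 and 3.79 CPM on average in controls, changed by −2.90 ± 0.37 and −3.11 ± 0.53 (edgeR adjusted p 1.4e-04 and 8.2e-04).

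A wide spread of the irradiated libraries was seen in several miR-669 members, among them miR-669l-5p (5.87, 4.78 and 12.6 CPM). Only miR-669c-5p, among the 15 tested members of the stem, had groups that overlapped. It measured 81.2, 159 and 128 CPM in controls and 34.6, 34.5 and 88.9 CPM after irradiation. Irradiated replicate 3 was above control 1, so the groups overlapped, while irradiated replicates 1 and 2 were nearly equal and low. The log2 fold change was −1.22 ± 0.42 (edgeR adjusted p 0.0300). Over 21 alternative settings it stayed between −1.76 and −0.77, with adjusted p from 2.1e-05 to 0.132, and it passed in 15. The call was lost when any of 4 libraries was left out: control replicate 2 (adjusted p 0.132), control replicate 3 (0.0785), irradiated replicate 1 (0.0614) or irradiated replicate 2 (0.129). Without irradiated replicate 3 the log2 fold change was −1.76 (adjusted p 0.0035). In irradiated replicates 1, 2 and 3 the muscle miRNAs summed to 602, 20116 and 13396 CPM and the epithelial miRNAs to 13813, 10721 and 15832 CPM, and their part in this spread was not tested.

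MiR-669c-5p also weighed on the stem sum. The miR-669 sum went from 642 ± 141 to 145 ± 43.2 CPM, which left 22.6%, the largest remainder of the 4 stems. Without miR-669c-5p it went from 519 ± 102 to 92.3 ± 16.5 CPM, leaving 17.8%. MiR-669c-5p held 2.34%, 3.52% and 2.74% of member counts in the controls and 5.98%, 5.60% and 11.01% after irradiation.

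The miR-297 stem was the smallest, and all 3 tested members were lower. MiR-297b-3p measured 25.5, 47.1 and 29.2 CPM in controls and 4.83, 4.18 and 3.72 CPM after irradiation. The groups were well apart, with a log2 fold change of −3.001 ± 0.35 (edgeR adjusted p 8.2e-05). MiR-297b-5p, from the other arm of the same hairpin, measured 8.56, 12.7 and 10.3 CPM and then 3.13, 2.51 and 3.72 CPM. It did not overlap either but dropped less, by a log2 fold change of −1.75 ± 0.34 (edgeR adjusted p 0.0018). MiR-297a-5p measured 9.84, 8.63 and 5.40 CPM and then 1.96, 0.716 and 1.27 CPM. The irradiated libraries were all below the controls, with a log2 fold change of −2.59 ± 0.44 (edgeR adjusted p 8.2e-04). MiR-297c-5p was too low to test, at 0.245 to 1.30 CPM in controls and 0 to 0.261 CPM after irradiation. The stem sum went from 53.2 ± 14.3 to 8.84 ± 1.27 CPM, leaving 16.6%.

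**Figure D4:**
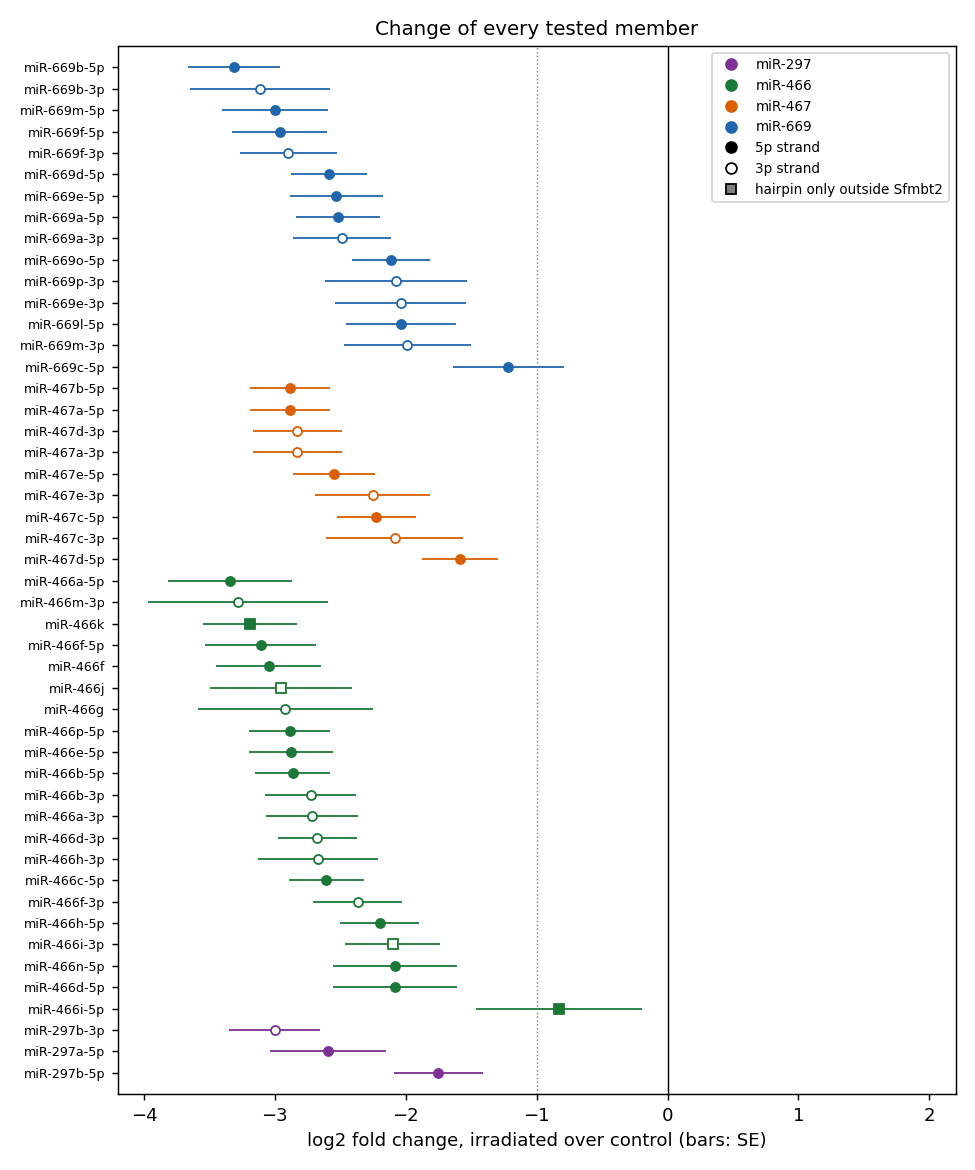
Log2 fold change of irradiated over control with its SE for each tested member, coloured by stem, with 5p strands filled, 3p strands open and squares for members matched outside Sfmbt2 alone. The dotted line marks −1. MiR-466i-5p at −0.83 and miR-669c-5p at −1.22 stand to the right of the other 46, which lie between −3.34 and −1.59.

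Position in the genome and copy number were compared next. All 40 tested members found only within Sfmbt2 were lower, with a median log2 fold change of −2.64, and so were the 4 found both there and elsewhere (miR-297a-5p, miR-466f, miR-466f-3p and miR-466f-5p). Members matched by 1 hairpin of the intron had a median control level of 12.8 CPM and a median log2 fold change of −2.25 over 19 tested. Those matched by 2 to 9 hairpins had 20.5 CPM and −2.61 over 15. Those matched by 10 or more had 110 CPM and −2.83 over 10. Members with more hairpins had higher levels and can hold reads of more copies, so these medians are a description only.

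Of the 8 members with no exact match in Sfmbt2, 4 were tested. MiR-466k measured 14.4, 19.3 and 20.6 CPM in controls and 1.83, 2.51 and 1.59 CPM after irradiation, with a wide gap between the groups and a log2 fold change of −3.19 ± 0.36 (edgeR adjusted p 7.4e-05). MiR-466j and miR-466i-3p were also lower, by log2 fold changes of −2.95 and −2.10, but were scarce. MiR-466j had 15, 20 and 15 counts in controls and 3, 2 and 1 after irradiation. MiR-466i-3p had 35, 60 and 58 counts and then 9, 10 and 16. Both passed the count filter through the controls alone, so they could come out only as lower. Each of these 3 shares a run of 18 or more bases with a member inside the cluster: miR-466k with the miR-466b-5p group, miR-466j with the miR-466f group and miR-466i-3p with miR-466f-3p. MiR-466i-5p shares none with any member.

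MiR-466i-5p is the member that did not pass. It consists of 10 consecutive UG units and matches 61 hairpins outside Sfmbt2, none inside it. It measured 3.14, 4.27 and 4.17 CPM in controls and 0.522, 1.07 and 4.78 CPM after irradiation, from 22, 46 and 34 counts and then 4, 9 and 45 counts. Irradiated replicate 3 was the highest of all 6 libraries, and irradiated replicates 1 and 2 were below every control. The log2 fold change was −0.83 ± 0.64 (edgeR adjusted p 0.274). It passed in 2 of 20 alternative settings: without irradiated replicate 3 (log2 fold change −2.21, adjusted p 0.0038), and without irradiated replicates 2 and 3 (−2.66, adjusted p 0.0011), which sets 1 irradiated library against 3 controls and assumes that it varies as they do.

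Both strands of the hairpins were lower. Of 33 members from the 5p arm 28 were tested and 27 were lower, with a median log2 fold change of −2.59, and of 34 from the 3p arm all 20 tested were lower, with a median of −2.69. The tested 3p strands were scarcer, with a median control level of 5.83 CPM beside 24.9 CPM for the 5p strands. Those that passed the count filter through the controls alone, such as miR-466g and miR-466m-3p, could come out only as lower. The 5p strands summed to 3632 ± 545 CPM in controls and 577 ± 131 CPM after irradiation, and the 3p strands to 576 ± 182 and 90.2 ± 14.95 CPM. Within a hairpin the balance of strands varied widely. In controls 10 of the 16 hairpins with both strands tested had more of the 5p strand and 6 more of the 3p strand. The 5p strand led 42.3-fold in miR-467e, 33.8-fold in miR-467c and 23.0-fold in miR-467a, and the 3p strand led 22.2-fold in miR-466a and 8.96-fold in miR-466d. Part of such a ratio can come from copies, since miR-467d-3p has the counts of miR-467a-3p and miR-466a-3p nearly those of miR-466b-3p.

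The ratio of 5p to 3p within each library does not depend on the scaling of the libraries. It was tested with limma over all 146 hairpins with both strands tested, of which 13.7% changed at an adjusted p of 0.05. Of the 16 member hairpins 1 changed, miR-297b. Its log2 ratio of 5p to 3p was −1.55, −1.87 and −1.48 in controls and −0.59, −0.69 and 0.00 after irradiation. The groups did not overlap, and the difference in log2 ratio was 1.21, with a 95% interval of 0.50 to 1.92 (limma adjusted p 0.0344). With 1 library left out the difference stayed between 0.997 and 1.34. Its adjusted p missed the threshold without control replicate 1 (0.110), 2 (0.136) or 3 (0.137) and without irradiated replicate 3 (0.119), settings in which 1, 0, 0 and 3 of all hairpins tested passed. The mature miR-297b-3p matches 4 hairpins of the intron and miR-297b-5p 1, so this ratio can include 3p reads of other hairpins.

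The other 15 hairpins did not pass. MiR-467d had a difference of 1.19 (95% interval 0.36 to 2.02, limma adjusted p 0.0633) and miR-669m one of −1.001 (−1.91 to −0.09, limma adjusted p 0.129), and with miR-297b they were the 3 hairpins at an unadjusted p under 0.05. The mature miR-467d-3p matches 12 hairpins of the intron and has the counts of miR-467a-3p, and miR-467d-5p matches 1. The miR-467d ratio can therefore include 3p reads of other hairpins. Over the 16 hairpins 5 differences were positive and 11 negative, with a median of −0.20, beside −0.01 over all 146. The 95% intervals of the 16 differences reached from −1.91 to 2.02.

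**Figure D5:**
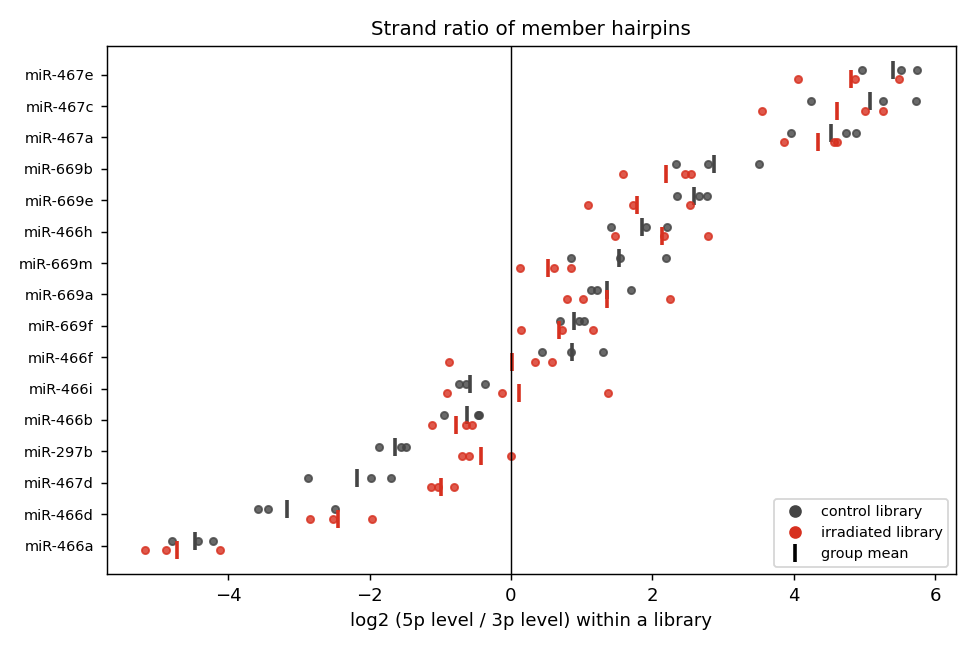
Log2 ratio of the 5p to the 3p strand for the 16 member hairpins in each library, with control and irradiated libraries in separate colours and a bar for each group mean. MiR-297b lies below 0 in the controls, at −1.87 to −1.48, and between −0.69 and 0.00 after irradiation, and miR-467d is the other hairpin whose groups do not overlap.

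MiRNAs outside the 4 stems that resemble members in sequence were compared next. The list held every other miRNA with the seed of a member or with 4 UG units in a row (UGUGUGUG). Of 6, 4 were tested, of which 3 were higher, beside 144 of all 519 tested miRNAs, and miR-32-3p did not pass. The untested miR-1187, which has the seed of miR-466a-5p and the UG run, had 4, 10 and 4 counts in controls and 0, 1 and 1 after irradiation, and miR-3082-5p had 1, 0 and 0 and then 0, 0 and 2. MiR-574-5p measured 13.8, 10.7 and 14.97 CPM in controls and 20.6, 48.0 and 43.6 CPM after irradiation, above every control, with a log2 fold change of 1.51 (edgeR adjusted p 0.0053). MiR-672-5p changed by 1.44 (edgeR adjusted p 0.0065). MiR-292a-3p, which has the seed AAGUGCC of miR-467a-5p, changed by 1.42 (edgeR adjusted p 0.0099). MiR-32-3p changed by −0.25 (edgeR adjusted p 0.639). Among the members themselves, 18 hold 4 or more UG units, and 16 of the 17 tested were lower, beside 174 of all 519 tested miRNAs. These 17 belong to only 9 of the groups joined by a shared run of bases, so they are not independent.

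The imprinted Gnas locus, also on chromosome 2, has its own miRNAs. MiR-296-3p measured 54.2, 48.1 and 61.6 CPM in controls and 5.61, 2.15 and 2.87 CPM after irradiation, a log2 fold change of −3.95 (edgeR adjusted p 4.7e-05). MiR-298-5p changed by −4.76 (edgeR adjusted p 3.6e-04). Both changes lay outside the range of the tested members, and miR-298-3p was too low to test. MiR-296-5p was also sought, but the count table held no row under that name.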

How the data were processed

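Per the file headers, the deposited values are unnormalized counts of reads, 1 per mature miRNA and library, listed with the mature and precursor sequences. The authors' aligner, counting tool and genome build are not given in the sources used, and DESeq2 1.10.1 stands in the submitters' processing notes. Another 6 columns of counts match no label and were left out. A precursor of the miR-467 stem is not reported here. Groups follow the labels, which give 3 mice per group.

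The members, the lists and the rule for naming miRNAs were chosen with earlier results of these data known. All 1390 miRNAs were filtered with default filterByExpr in edgeR 4.0.16 (R 4.3.3). The 519 kept entered 1 fit, with TMM factors (0.823 to 1.39) computed on them and a robust quasi-likelihood test between the groups. Benjamini-Hochberg values cover the 519 tested miRNAs, with a threshold of 0.05, and each SE is the absolute log2 fold change over the square root of F. Strand ratios (log2 CPM with a prior count of 2, 5p minus 3p) were tested with limma 3.58.1 over 146 hairpins. The scripts were tested on simulated data with known changes.

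Members named with values were the 3 most abundant of each stem and strand, those not passing, the 2 largest and 2 smallest changes among members averaging at least 10 CPM, and both strands of a hairpin whose ratio passed. Members named for position, copies or low counts were added after their values were seen. Alternatives were other scalings (median-of-ratios, library totals, upper quartile, TMM without the members), other filters and thresholds, DESeq2 1.42.0, limma-voom, merged identical rows, known miRNAs only, the replicate number as a block, and leaving out each library. Reducing overlapping members to the most abundant, for calls and sums, and leaving out irradiated replicates 2 and 3 together were chosen after seeing the data.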

Additional observations from a re-analysis of the deposited data

How the results depend on the processing

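The 47 lower members of 48 tested became 46 to 47 under the other scalings, with upper-quartile factors giving 46, and 47 with DESeq2 and with limma-voom. With each library left out in turn, 45 to 50 members were lower of 48 to 51 tested. Requiring a mean of at least 10 CPM left 26 tested members, all 26 lower, and reducing overlapping members to the most abundant left 28 tested, of which 27 were lower; both counts fell because fewer members were tested. The median log2 fold change of all tested miRNAs moved from 0.01 to 0.12 (median-of-ratios factors), −0.13 (scaling to library totals), 0.44 (upper quartile) and −0.20 with TMM factors computed without the members. The labels do not say whether replicate numbers pair mice. Libraries of the same number deviated together with r of −0.02 to 0.23, and those of different numbers with r of −0.25 to 0.11. So few values cannot decide it. With the replicate block 47 members were lower and 2 member hairpins changed in strand ratio, miR-467d and miR-297b, beside 22.6% of all hairpins. With 1 library left out, 0 to 1 did, and the cause was not tested. With both strands at a mean of at least 10 CPM, 1 of 4 changed, miR-467d, beside 17.4% of all hairpins.

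Of 511 values of the 25 named tested members under the alternatives, 503 kept direction and side of the threshold, 6 lost the call (all miR-669c-5p, among them −0.77 with upper-quartile factors, adjusted p 0.119, and the threshold of 0.01), 2 gained it (both miR-466i-5p) and 0 reversed. Stem sums were recomputed with library totals, with all rows, with 1 member per overlapping group and with each library left out. Their log2 ratios of irradiated over control moved by less than the spread between replicates. The miR-467 sum itself moved more with all rows, where the counts of miR-467a-5p enter again under miR-467b-5p. The sums were not recomputed with upper-quartile factors, which moved the members' median from −2.64 to −2.20. Depth limits the 19 untested members, none of which had more than 30 counts in a library.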
